A study of Capra hircus with 2 samples.

Results

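The miR-17-92 cluster is a run of 6 miRNA genes, miR-17, miR-18a, miR-19a, miR-20a, miR-19b and miR-92a, which lie next to each other in this order and are made from a shared primary transcript. Its members were taken from the deposited table by their goat names (chi-miR-17, chi-miR-18a, chi-miR-19a, chi-miR-20a, chi-miR-19b and chi-miR-92a), with every listed arm, which gave 10 mature miRNAs of the 590 listed. All 6 names had at least 1 row. Both arms were listed for 4 of them, miR-17, miR-18a, miR-20a and miR-92a. miR-19a had a single row with no arm in its name, and miR-19b had a row for its 5p arm only. Whether a miRNA without a row, such as the 3p arm of miR-19b, went undetected or did not pass the authors' filter is not known here, and nothing is said of it.

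The study compared small RNA of natural killer (NK) cells from female goats, and its title concerns miR-1 and the cytokine TWEAK in uterine NK cells. The uNK library came from NK cells of the uterus and the pNK library from NK cells of peripheral blood, with 1 library per group. No treatment, age, breed, pregnancy state, cell marker or number of animals is given for either library in the sources used here. Each comparison below is therefore one between 2 libraries, with no spread between replicates and no test across animals. The intervals are exact 95% intervals for counting error only.

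In mammals the cluster is switched on by the transcription factor MYC and is known for promoting proliferation and survival of lymphocytes, in part by repressing the cell death gene BIM. Its miRNAs fall into seed families, groups that share the bases with which a miRNA recognises its targets. miR-17 and miR-20a belong to the miR-17 family, miR-18a to the miR-18 family, miR-19a and miR-19b to the miR-19 family, and miR-92a to the miR-92 family. Each hairpin precursor yields a 5p and a 3p arm. The arm that is mostly loaded into the silencing complex is called the guide here and the other the passenger. The guides are the 5p arms of miR-17, miR-18a and miR-20a and the 3p arms of the miR-19 members and miR-92a. The single miR-19a row was counted as the guide.

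Depth was close in both libraries, at 30063448 reads for pNK and 31780927 for uNK. These totals follow from the deposited counts and the deposited reads per 1000000 reads (RPM). Which reads they count, raw, cleaned or mapped, is not given in the sources used here. Listed miRNAs accounted for 47.5% of this total in pNK and for 37.4% in uNK. A single read was worth 0.0333 RPM in the pNK and 0.0315 RPM in the uNK library. The lymphocyte markers miR-150 and miR-155 were present in both libraries, whereas miR-142 and miR-181a, also on the list of lymphocyte markers, had no row. Of the 314 listed miRNAs with goat miRNA names, 144 were lower in uNK and 170 higher by the authors' log2 ratio. All 4 listed arms of lymphocyte markers were lower in uNK, with a summed level of 20518 RPM in pNK and 186 RPM in uNK. Among them miR-150, a miRNA abundant in resting lymphocytes, had 19052 RPM in pNK and 32.2 RPM in uNK, and miR-181b-3p had 8 reads in pNK and 0 in uNK.

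All 10 listed miRNAs of the cluster were at least 2-fold lower in the uNK library than in the pNK library. Of all 590 listed miRNAs, 62.0% passed the same threshold, and of the 314 with goat miRNA names 45.9% did. The table was filtered on difference by the authors, so a miRNA had to differ in order to be listed, and the count of members past the threshold has little to be read against. At least 4-fold lower were 9 of the 10, against 53.4% of all listed miRNAs and 36.9% of the named ones. The median log2 ratio of uNK over pNK was -3.38 over the 10, -2.20 over all 590 and 1.15 over the 314 with goat miRNA names, of which more were higher than lower in uNK. Over the 144 named miRNAs that were lower in uNK it was -3.11, and 80.6% of these 144 were at least 4-fold lower.

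Summed over its 10 listed arms, the cluster had 193330 reads in pNK and 23416 in uNK. These correspond to 6431 RPM and 737 RPM, an 8.73-fold lower level in uNK (interval 8.61 to 8.85). Its part in the listed reads was 1.35% for pNK and 0.197% for uNK. The sum describes mainly miR-92a-3p, and without that arm the remaining 9 were 11.3-fold lower (10.9 to 11.7), with 33373 reads in pNK and 3127 in uNK.

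Markers of other cell types differed between the libraries as well, as every listed miRNA had to. By the authors' log2 ratio, 170 of the 314 listed miRNAs with goat miRNA names were higher in uNK and 144 lower. All 9 listed arms of the 5 stromal and smooth muscle markers were higher in uNK, with a summed level of 12158 RPM in pNK and 185567 RPM in uNK. All 5 epithelial markers were higher as well, at 257 RPM (pNK) and 3592 RPM (uNK). Both arms of the endothelial marker miR-126 were higher, at 1769 RPM (pNK) and 10555 RPM (uNK) when summed. Of the 3 erythroid markers miR-451 and miR-144 were listed, each by both arms, with a summed level of 3258 RPM (pNK) and 9817 RPM (uNK). Of their 4 arms, 3 were higher in uNK beyond counting error, and miR-451-3p had 6 reads in pNK and 16 in uNK, a ratio of 2.52 whose interval (0.938 to 7.87) includes no change. Both arms of the myeloid marker miR-223 were lower, at 28632 RPM (pNK) and 21.1 RPM (uNK). None of these markers was at 0 in either library. Their part in the level of the cluster was not tested, and fewer cells that express the cluster and less of it per cell cannot be told apart in a bulk library.

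miR-92a-3p, the guide of the last gene of the cluster and a known repressor of integrin genes in blood vessels, was the most abundant listed member. It had 159957 reads (5321 RPM) in pNK and 20289 reads (638 RPM) in uNK, and was 8.33-fold lower in uNK (8.21 to 8.46). By read count it ranked 14 among the 590 listed miRNAs in pNK and 38 in uNK. It took 82.7% of the reads of the cluster in pNK (82.57 to 82.91%) and 86.6% in uNK (86.20 to 87.08%).

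miR-20a-5p, a miR-17 family member that represses E2F transcription factors, came next. It had 19992 reads (665 RPM) in pNK and 1952 reads (61.4 RPM) in uNK, a 10.8-fold lower level (10.3 to 11.3). The founding member miR-17-5p, which shares its seed, had 6032 reads (201 RPM) in pNK and 422 reads (13.3 RPM) in uNK and was 15.1-fold lower (13.7 to 16.7). Among the 5 listed guides this was the largest difference. Summed, both guides of the miR-17 family in the cluster were 11.6-fold lower (11.1 to 12.1), at 866 RPM (pNK) and 74.7 RPM (uNK).

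miR-18a-5p, the only listed guide of the cluster in the miR-18 family, had 5342 reads (178 RPM) in pNK and 454 reads (14.3 RPM) in uNK. It was 12.4-fold lower in uNK (11.3 to 13.7). miR-19a, whose family is known as the main oncogenic part of the cluster in mouse B cell lymphoma, was the least abundant listed guide. It had 969 reads (32.2 RPM) in pNK and 218 reads (6.86 RPM) in uNK. Its difference was the smallest of the listed guides, at 4.70-fold lower (4.05 to 5.47).

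**Figure D1:**
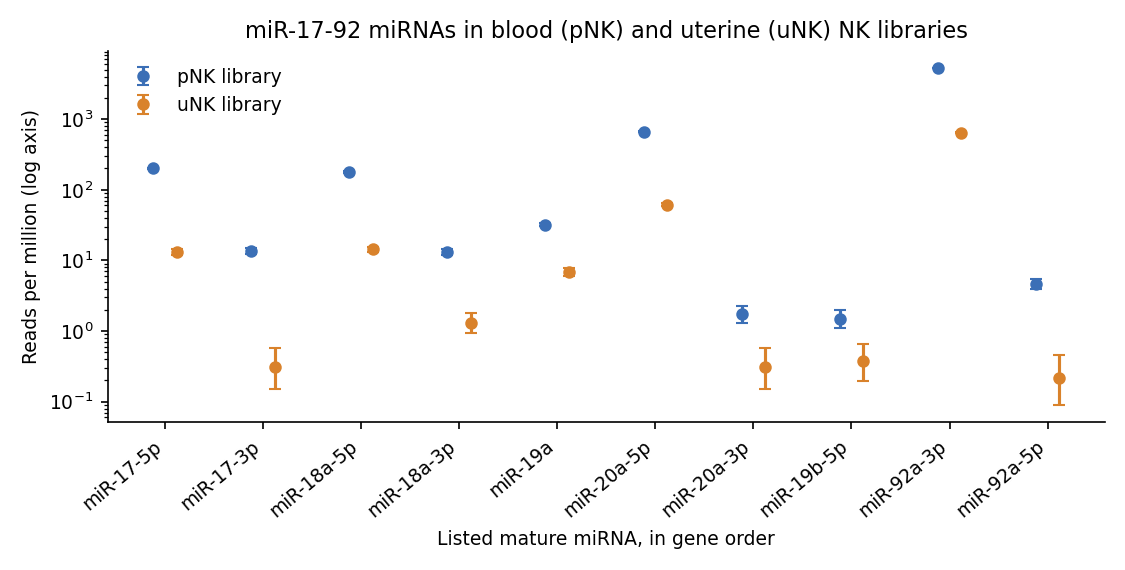
Reads per 1000000 reads (RPM, log axis) of the 10 listed miR-17-92 miRNAs in the pNK and uNK libraries, in the order of their genes; points are single libraries and bars exact 95% Poisson intervals for counting error. Every pNK point lies above its uNK point, from 5321 against 638 RPM for miR-92a-3p to 1.50 against 0.378 RPM for miR-19b-5p.

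The order of the levels was nearly shared between the libraries. In pNK the listed guides ranked miR-92a-3p, miR-20a-5p, miR-17-5p, miR-18a-5p and miR-19a, and each neighbour in that order differed beyond counting error. In uNK miR-18a-5p stood above miR-17-5p, by a ratio of 1.08 with an interval of 0.940 to 1.23, so the 2 did not differ beyond counting error there. In pNK the same pair stood in the other order, with miR-17-5p at 1.13 times miR-18a-5p (1.09 to 1.17). Small RNA libraries capture different sequences with different efficiency, so such ratios between miRNAs are ratios of reads.

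The passenger arms were lower in uNK too, but few reads support them there. miR-17-3p had 404 reads (13.4 RPM) in pNK and 10 reads (0.315 RPM) in uNK, a 42.7-fold lower level (23.0 to 89.7). This was the largest point value of a difference among the listed arms. miR-18a-3p had 396 and 42 reads, a 9.97-fold lower level (7.24 to 14.0). miR-92a-5p had 141 and 7 reads and was 21.3-fold lower (10.1 to 53.9). The passenger arms with the fewest pNK reads had wide intervals. For miR-20a-3p, with 52 and 10 reads, the level was 5.50-fold lower (2.76 to 12.1). For miR-19b-5p, with 45 and 12 reads, it was 3.96-fold lower (2.06 to 8.23), which is the member under 4-fold. In uNK the levels of miR-19b-5p, miR-17-3p, miR-20a-3p and miR-92a-5p could not be ranked, since each neighbour in their order lay within counting error of the next.

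Cluster mates did not differ between the libraries by a common factor. The ratio of the folds of 2 miRNAs does not depend on how the libraries are scaled to each other, and it was computed for all 10 pairs of the 5 listed guides. The larger fold of each pair was divided by the smaller, so every ratio is above 1 by construction. In all 10 the exact interval excluded 1. The widest gap was that between miR-17-5p and miR-19a, whose folds differed by 3.22 times (2.68 to 3.85). miR-20a-5p and miR-92a-3p differed from miR-19a by 2.30 times (1.97 to 2.69) and 1.77 times (1.52 to 2.06). The smallest gap was that between miR-18a-5p and miR-20a-5p, at 1.15 times (1.03 to 1.28). These intervals cover reads alone, and how much the folds would vary between further libraries cannot be measured here.

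Set in gene order, the guides miR-17-5p, miR-18a-5p, miR-20a-5p and miR-92a-3p were 15.1-fold, 12.4-fold, 10.8-fold and 8.33-fold lower, a falling order that was noticed after the values were seen. Between neighbours in this order the folds differed by 1.21 times (1.06 to 1.40), 1.15 times and 1.30 times (1.24 to 1.36). miR-19a, the third gene, lay below this order. The listed arm of miR-19b, the fifth gene, was also under the folds of both its neighbours' guides as a point value, but its interval of 2.06 to 8.23 overlapped that of miR-92a-3p.

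The composition of the listed reads of the cluster shifted accordingly. The share of miR-17-5p in these reads was 3.12% in pNK (3.04 to 3.20%) and 1.80% in uNK (1.64 to 1.98%). That of miR-18a-5p was 2.76% (2.69 to 2.84%) and 1.94% (1.77 to 2.12%). miR-20a-5p took 10.3% (10.2 to 10.5%) and 8.34% (7.99 to 8.70%). The share of miR-19a was larger in uNK, at 0.501% in pNK (0.470 to 0.534%) and 0.931% in uNK (0.812 to 1.06%). With miR-92a-3p left out, miR-20a-5p made up 59.9% of the remaining reads in pNK and 62.4% in uNK, and miR-19a 2.90% and 6.97%.

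**Figure D2:**
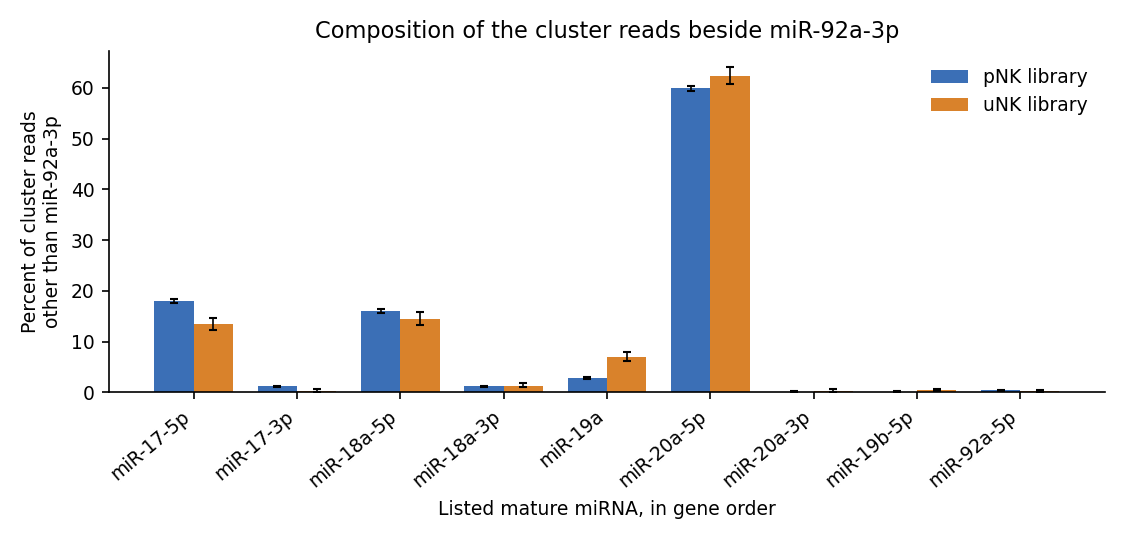
Percent of the listed cluster reads other than miR-92a-3p taken by each listed arm in the pNK and uNK libraries. Bars are single libraries and error bars exact 95% Clopper-Pearson intervals for counting error. miR-20a-5p leads in both, miR-17-5p has the smaller share in uNK (13.5% against 18.1%) and miR-19a the larger one (6.97% against 2.90%).

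For the 4 precursors with both arms listed, the ratio of guide to passenger reads was compared within each library, which removes the scaling between them. miR-17 had 14.9 guide reads per passenger read in pNK and 42.2 in uNK, a change of 2.83 times (1.51 to 5.98). miR-92a had 1134 in pNK and 2898 in uNK, a change of 2.55 times (1.21 to 6.47). In both precursors the passenger made up a smaller part in uNK. For miR-17 this part was 6.28% in pNK (5.70 to 6.90%) and 2.31% in uNK (1.12 to 4.22%), and for miR-92a 0.0881% (0.0741 to 0.104%) and 0.0345% (0.0139 to 0.0710%). The other precursors had point values in the opposite direction whose intervals included no change. miR-18a went from 13.5 to 10.8 guide reads per passenger read, a change of 0.801 times (0.573 to 1.15). miR-20a went from 384 to 195, a change of 0.508 times (0.255 to 1.12). The uNK values rest on 10, 42, 10 and 7 passenger reads for miR-17, miR-18a, miR-20a and miR-92a. A passenger had to differ between the libraries to be listed, so a precursor whose passenger differed little could not enter this comparison.

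**Figure D3:**
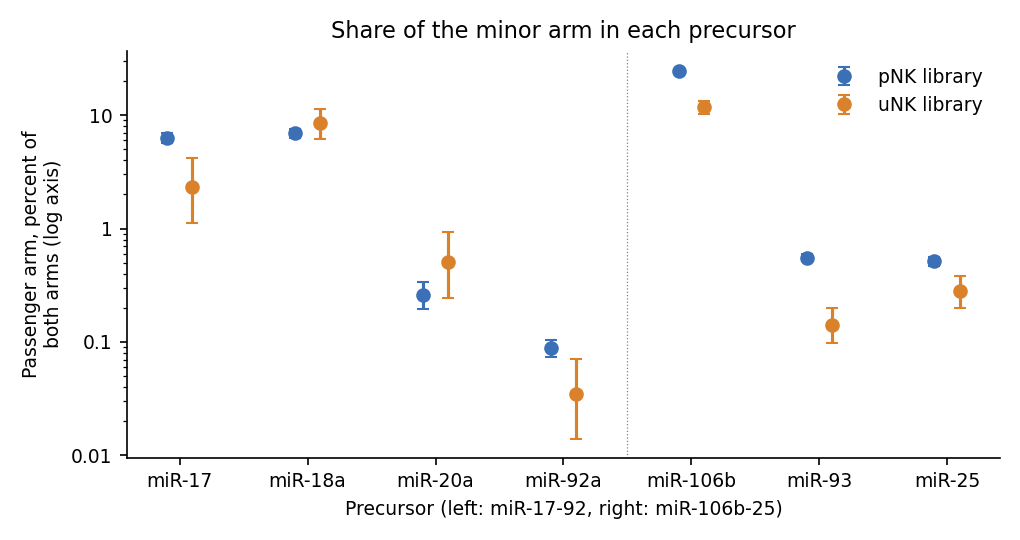
Passenger arm as percent of the reads of both arms (log axis) in the pNK and uNK libraries, for the 4 miR-17-92 precursors with both arms listed (left of the dotted line) and the 3 precursors of miR-106b-25 (right); points are single libraries and bars exact 95% Clopper-Pearson intervals for counting error. The uNK point lies lower for miR-17, miR-92a, miR-106b, miR-93 and miR-25, and the intervals of both libraries overlap for miR-18a and miR-20a.

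Mammals carry paralog clusters that arose by duplication of miR-17-92, and their members share its seeds. In the goat gene table of assembly ARS1.2, miR-106b, miR-93 and miR-25 are neighbours, and miR-106a, miR-18b, miR-20b and miR-363 lie together with a gene named miR-92b. In other mammals this cluster holds a further copy of miR-92a at that place, and the name of the goat gene was not checked by sequence here. Whether part of the miR-92a-3p reads came from the paralog cluster, and which gene the miR-92b row belongs to, is therefore not known. The 2 paralog clusters had 6 listed arms each, without miR-92b, and all were lower in uNK. Of all 590 listed miRNAs 62.0% were at least 2-fold lower, and of the 314 with goat miRNA names 45.9% were. Every listed miRNA had to differ, so this count of paralog arms has little to be read against. Single values are limited by sequence likeness, since how reads that match several family members were assigned is not given in the sources used here. This touches miR-17, miR-20a, miR-106a, miR-20b, miR-106b and miR-93, further miR-18a and miR-18b, miR-19a and miR-19b, and miR-92a with miR-92b.

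The folds of the miR-106b-25 guides lay in a narrow range. miR-93-5p was its most abundant arm, at 5688 RPM (pNK) and 728 RPM (uNK), and was 7.81-fold lower (7.71 to 7.92). miR-25-3p and miR-106b-5p were 5.84-fold and 5.86-fold lower. The passengers of this cluster had larger folds, at 10.8 for miR-25-5p, 14.3 for miR-106b-3p and 30.6 for miR-93-3p. In the miR-106a-363 cluster the listed arms ranged more widely. miR-363-3p was its most abundant arm, at 581 RPM (pNK) and 31.9 RPM (uNK), and was 18.2-fold lower (17.1 to 19.4). miR-20b was 2.68-fold lower (2.52 to 2.86) and miR-18b-5p, with 1156 and 29 reads, 42.1-fold lower (29.2 to 63.2). miR-92b, at 764 RPM (pNK) and 48.9 RPM (uNK), was 15.6-fold lower (14.9 to 16.5). Summed, the miR-106a-363 arms were 9.69-fold lower (9.29 to 10.1) and the miR-106b-25 arms 7.07-fold lower (6.999 to 7.149), beside the 8.73-fold of miR-17-92.

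**Figure D4:**
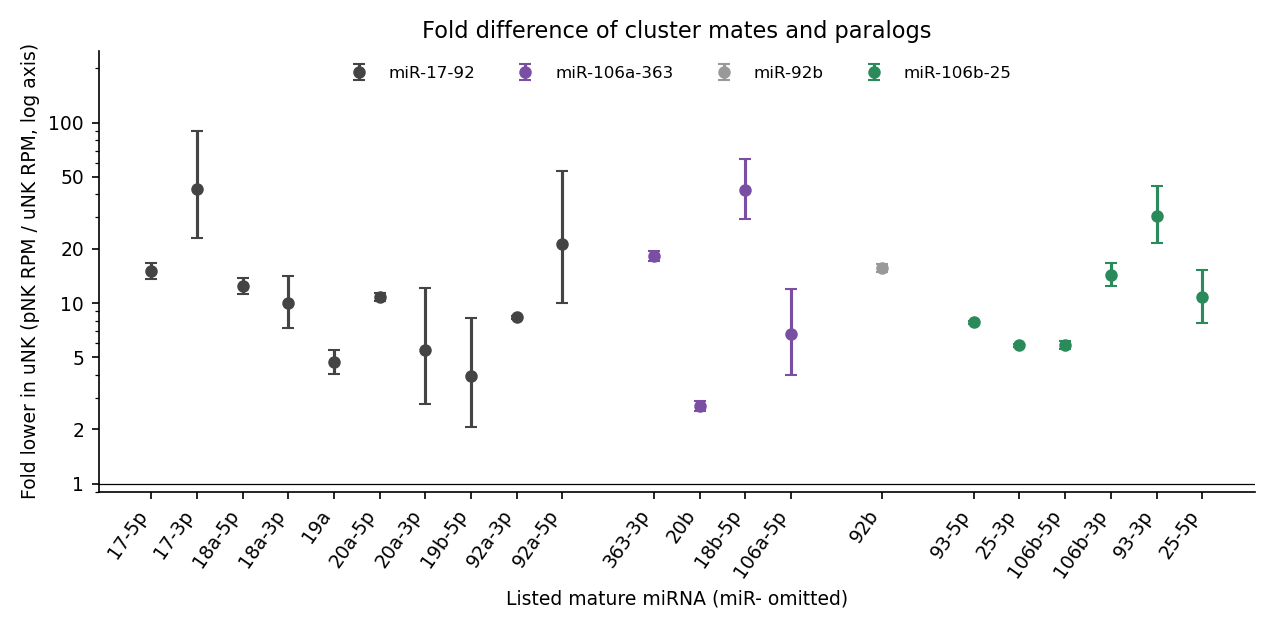
Fold by which each listed arm was lower in uNK (RPM in pNK over RPM in uNK, log axis) for miR-17-92 in gene order and, by cluster, its paralogs with at least 5 uNK reads; points compare single libraries, bars are exact 95% intervals for counting error and the line at 1 marks no difference. All points lie above 1; within miR-17-92 they run from 3.96 for miR-19b-5p to 42.7 for miR-17-3p.

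Folds were also compared within seed families, in 9 pairs, of which 8 set a cluster member against a paralog. The larger fold of each pair was again divided by the smaller, so every ratio is above 1 by construction. In all 9 the exact interval excluded 1. Within the miR-17 family, the fold of miR-17-5p was 2.25 times that of miR-106a-5p (1.25 to 3.82) and 2.58 times that of miR-106b-5p (2.30 to 2.89). The fold of miR-20a-5p was 4.04 times that of miR-20b (3.73 to 4.37) and 1.39 times that of miR-93-5p (1.32 to 1.46). In the miR-18 family the order was the reverse, with miR-18b-5p at 3.39 times the fold of miR-18a-5p (2.31 to 5.14). In the miR-92 family miR-363-3p and miR-92b had 2.19 times (2.05 to 2.33) and 1.88 times (1.78 to 1.98) the fold of miR-92a-3p, whose own fold was 1.43 times that of miR-25-3p (1.40 to 1.46). miR-363-3p and miR-92b differed from each other by 1.16 times (1.07 to 1.26).

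The cluster supplied unequal parts of its seed families. In the miR-17 family, miR-17-5p and miR-20a-5p made up 12.5% of the reads of that family in pNK and 8.36% in uNK, and miR-93-5p most of the rest. The whole family was 7.78-fold lower (7.68 to 7.87), at 6952 RPM (pNK) and 894 RPM (uNK). In the miR-18 family, miR-18a-5p made up 82.2% of the reads in pNK and 94.0% in uNK. miR-92a-3p made up 57.3% and 54.7% of the listed miR-92 family, which was 7.95-fold lower (7.86 to 8.04), at 9285 RPM (pNK) and 1168 RPM (uNK). For the miR-19 family no guide beside miR-19a was listed.

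Of 167 other named miRNAs with at least 1000 reads over both libraries, the 5 whose log2 ratio was nearest to that of the summed cluster were miR-345-5p, miR-125a-5p, miR-7-3p, miR-15b-3p and miR-155-5p. The likeness is a distance in 1 ratio between 2 libraries, of 0.0531 to 0.130 log2 units. miR-345-5p was 8.41-fold lower (8.05 to 8.80), and miR-155-5p, a miRNA of lymphocyte activation, 9.55-fold lower (9.27 to 9.84), at 1464 RPM (pNK) and 153 RPM (uNK).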

How the data were processed

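Small RNA was sequenced from 1 library of uterine NK cells (uNK) and 1 of blood NK cells (pNK), grouped by source name. Per the labels' protocols, total RNA was isolated with Trizol. No aligner, counter, build or miRNA release is given in the sources used here. The authors' table of 590 miRNAs (314 with goat names, 276 predicted) is named for DEGseq and a filter on difference. It holds whole-number read counts and expression values in RPM, per the file headers and values, as deposited. The authors' deposited log2 ratio has no absolute value under 1.01; the deposited p-value and q-value columns, which compare 1 library with 1 library, were not used.

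Library totals were taken as the median of count over deposited RPM for miRNAs with at least 5000 reads. Folds are ratios of RPM with exact Clopper-Pearson 95% intervals on both counts; ratios of folds and of arms have exact conditional intervals. All cover counting error only, since there was 1 library per group. No molecular identifiers are mentioned, so copies of the same molecule may be counted as several reads and the intervals may be too narrow. For medians and threshold shares over the table, and for the choice of the most alike miRNAs, a count of 0 was set to a floor of 3 counts. This applied to 180 miRNAs in uNK and 37 in pNK, none of them a listed arm of the cluster. The interval code was tested on simulated counts. No p-value was computed.

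Every listed arm of the 6 members was named, along with the most abundant arm of each paralog cluster and the 5 most alike miRNAs; further paralogs were named after their values were seen. Members and lists were chosen with earlier results of these data known. Seed families were assigned by name; mature sequences were not used here. The gene table of ARS1.2 served for neighbours only. Alternatives were other scalings (including TMM in edgeR 4.0.16 with R 4.3.3), pseudocounts, count filters, fold thresholds and arm choices. Python 3.11.15, numpy 2.4.6, pandas 2.3.3, scipy 1.17.1 and matplotlib 3.10.9 were used.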

Additional observations from a re-analysis of the deposited data

How the results depend on the processing

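No paired analysis was possible because there was 1 library a group and the labels give no replicate numbers, and leaving out a library was impossible as well. Other scalings shift every log2 ratio by a constant relative to the RPM scale, 0.35 for the listed totals, -0.67 for the median ratio and 0.74 for TMM, each computed only on miRNAs listed as different. The authors' deposited log2 ratio is shifted by 0.35, and what it was scaled on is not stated. The log2 ratio of the summed cluster, -3.13 on the RPM scale, was accordingly -2.78 when scaled to the listed totals, -3.79 when scaled to the median ratio, -2.38 with TMM and -2.78 on the scale of the authors' deposited table; it was -3.50 without miR-92a-3p. All 60 alternative values of the 10 single arms, pseudocounts of 1 and 5 RPM included, were below 0. With 5 RPM added, however, the log2 ratios of miR-20a-3p (-0.34), miR-19b-5p (-0.27) and miR-92a-5p (-0.89) no longer reached 2-fold. With 1 RPM added that of miR-19b-5p (-0.86) did not. Pseudocounts did not enter the counts that follow. The count of members at least 2-fold lower was 8 to 10 under the filters, the 4-fold threshold and the scalings, the last added after the data were seen. The 8 came from the filter of at least 100 counts, which miR-20a-3p and miR-19b-5p did not reach. Every member left by that filter was at least 2-fold lower. Over all 590 listed miRNAs the count of 366 became 186 with at least 100 counts and 144 among the 314 named miRNAs, since fewer miRNAs are then counted. It was 315 to 366 otherwise. How many miRNAs the filter of 100 counts left is not given here, so the 186 is not a share. The 4 arm ratios stayed within their intervals with 0.5 counts added. Of 10 shares, 1 left its interval with guide arms only. Depth limits the passenger arms in uNK, where 3 of 5 had 10 reads or fewer.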

Other observations

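The 3 precursors of miR-106b-25 also had both arms listed, and in each the passenger took a smaller part of the reads in uNK. These passengers, too, had to differ between the libraries to be listed. miR-106b had 3.08 guide reads per passenger read in pNK and 7.53 in uNK, a change of 2.45 times (2.10 to 2.87). For miR-93 the ratio was 179 in pNK and 701 in uNK, a change of 3.91 times (2.76 to 5.72), and for miR-25 it was 193 and 357, a change of 1.84 times (1.33 to 2.62). In the miR-106a-363 cluster the passengers had too few uNK reads for such a ratio, with 1 read of miR-106a-3p and 0 of miR-18b-3p, which had 11 reads in pNK.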
